A study of Mus musculus with 4 samples.

Results

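The genes described here encode the subunits of the oxidative phosphorylation machinery that are carried in the nucleus, in leukocytes of healthy mouse liver. They were chosen by name, without use of their measured levels beyond a minimum: symbols starting with Nduf (the assembly factors Ndufaf left out), Uqcr, Cox4 to Cox8 or Atp5, with at least 20 unique molecular identifiers (UMIs, tags that mark single RNA molecules) over all deposited barcodes. Of 82 genes with these prefixes, 77 met the minimum, among 12105 genes that did. They are 38 genes of complex I, 8 of complex III, 14 of complex IV and 17 of ATP synthase, spread over 19 chromosomes. Just inside the minimum were Cox7a1 with 23 UMIs and Cox6b2 with 40; just outside were Cox4i2 with 9 and Ndufa4l2 with 1, while Cox7b2, Cox8b and Cox8c had 0. All but 1 are annotated as protein coding in GENCODE vM21, the exception being Ndufb1-ps, listed there as a bidirectional promoter lncRNA, so that its UMIs are those of an annotated RNA rather than of a protein coding model.

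Cells carrying CD45, the surface mark of leukocytes, were profiled from C57BL/6 mice with the PA-GFP genotype, which encodes a photoactivatable green fluorescent protein: light aimed at a zone of the tissue makes its cells fluoresce. The treatment of every sample is photoactivation, the livers are labelled healthy, and the labels used here give neither age nor sex. The 2 PV libraries hold cells of the periportal zone, where blood enters the liver lobule, and the 2 CV libraries cells of the pericentral zone, where it drains into the central vein. The labels do not state whether the libraries are from different animals, and p-values therefore rest on differences between libraries that may be only technical.

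The 4 libraries held 588 to 755 barcodes and 2741760 to 4373488 UMIs. After filtering, 333 and 512 cells remained in PV replicates 1 and 2, and 372 and 376 in CV replicates 1 and 2, 1593 in all, with medians of 5369 to 6317.5 UMIs per cell. The libraries shared barcodes: 282 of 1939 occurred in 2 or more of them, and such a barcode was assigned to the library that had at least 70% of its UMIs, which dropped 704 entries. Cells were placed in a class when at least 4 of its marker genes had a UMI. This gave 703 T cells, 260 macrophages, 154 B cells, 86 neutrophils, 79 type 1 conventional dendritic cells (cDC1), 75 natural killer cells and ILC1 (NK), 28 type 2 conventional dendritic cells (cDC2) and 21 plasmacytoid dendritic cells (pDC). Cells that met several gates (95, of which 45 met both T and NK gates) or none (76) were left out of the classes. The gates held every listed marker of their own class in T cells, B cells, macrophages, neutrophils, cDC1, cDC2 and pDC. Cells entered a class on these same markers, so their presence does not test the gates. The neutrophil sums held 0 UMIs of the 8 B cell markers. T cells, B cells, macrophages, neutrophils and cDC1 had at least 10 cells in every library and were tested, on UMIs summed per library and class; the other classes are given as values only. Levels are given as CPM, a gene's UMIs scaled to a total of 1000000 for the class in that library. UMIs were read near the 3′ ends of transcripts and count molecules whatever their length, so levels of different genes are set side by side on that scale. Values for 4 libraries are given in the order PV replicates 1 and 2, then CV replicates 1 and 2.

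Oxidative phosphorylation is carried out in the inner mitochondrial membrane. Complex I takes electrons from NADH and passes them through ubiquinone to complex III, cytochrome c carries them on to complex IV, which reduces oxygen, and ATP synthase uses the proton gradient that these complexes build. Each of the 4 complexes combines subunits from nuclear genes with core subunits encoded in mitochondrial DNA, whereas complex II is wholly nuclear. Neutrophils are textbook examples of leukocytes with few mitochondria that rely on glycolysis, and tissue macrophages, lymphocytes and dendritic cells use respiration to varying degrees.

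Promoters are shown for the 3 genes of the ATP synthase c subunit, whose neutrophil levels were among those furthest below the other classes, for 2 complex I genes of the same kind and, as a contrast, for 2 genes whose mean neutrophil levels were not below the mean of the other classes. Each run holds the 250 bases before the annotated start of the gene, 5′ to 3′ on the gene's strand, from RefSeq on GRCm38.p6. Capitals mark exact matches on either strand to the letters CGCATGCG, the core of the NRF1 motif, which reads the same on both strands, to CCGGAAG, an ETS motif of the kind bound by NRF2 (GABP), or to AAGATGGCG, a YY1 motif. NRF1, NRF2 and YY1 are transcription factors known for binding promoters of respiratory chain genes.
Atp5g1, chr11:96075632-96075881, minus strand: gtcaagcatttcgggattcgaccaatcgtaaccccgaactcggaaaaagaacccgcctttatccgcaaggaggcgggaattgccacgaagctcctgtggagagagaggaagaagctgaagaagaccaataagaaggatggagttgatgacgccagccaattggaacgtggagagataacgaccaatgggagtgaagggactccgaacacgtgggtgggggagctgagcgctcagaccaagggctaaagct
Atp5g2, chr15:102671048-102671297, minus strand: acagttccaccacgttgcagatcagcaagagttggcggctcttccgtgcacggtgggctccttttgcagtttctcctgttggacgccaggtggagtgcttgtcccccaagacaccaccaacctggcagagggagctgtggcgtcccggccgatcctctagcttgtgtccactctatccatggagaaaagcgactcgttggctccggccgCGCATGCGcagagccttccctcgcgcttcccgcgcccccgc
Atp5g3, chr2:73911327-73911576, minus strand: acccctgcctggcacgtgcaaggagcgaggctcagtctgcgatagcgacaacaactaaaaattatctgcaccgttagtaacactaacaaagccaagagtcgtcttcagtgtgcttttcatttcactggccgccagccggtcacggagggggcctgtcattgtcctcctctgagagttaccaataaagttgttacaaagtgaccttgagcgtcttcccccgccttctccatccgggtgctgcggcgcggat
Ndufa9, chr6:126849145-126849394, minus strand: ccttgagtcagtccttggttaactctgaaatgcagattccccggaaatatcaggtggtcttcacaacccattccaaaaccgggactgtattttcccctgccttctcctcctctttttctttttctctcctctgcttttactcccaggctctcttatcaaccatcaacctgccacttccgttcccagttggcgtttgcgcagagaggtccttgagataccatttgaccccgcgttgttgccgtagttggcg
Ndufa11, chr17:56717512-56717761, plus strand: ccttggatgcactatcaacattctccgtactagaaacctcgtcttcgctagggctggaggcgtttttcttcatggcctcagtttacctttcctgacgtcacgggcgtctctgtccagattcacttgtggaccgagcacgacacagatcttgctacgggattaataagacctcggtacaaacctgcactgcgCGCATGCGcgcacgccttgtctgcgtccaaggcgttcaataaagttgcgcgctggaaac
Cox8a, chr19:7217617-7217866, minus strand: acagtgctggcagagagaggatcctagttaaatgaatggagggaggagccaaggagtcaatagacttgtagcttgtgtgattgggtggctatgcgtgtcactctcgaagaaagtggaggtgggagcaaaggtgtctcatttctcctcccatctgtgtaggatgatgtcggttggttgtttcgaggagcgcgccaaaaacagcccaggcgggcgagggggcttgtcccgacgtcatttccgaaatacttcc
Atp5l, chr9:44920743-44920992, minus strand: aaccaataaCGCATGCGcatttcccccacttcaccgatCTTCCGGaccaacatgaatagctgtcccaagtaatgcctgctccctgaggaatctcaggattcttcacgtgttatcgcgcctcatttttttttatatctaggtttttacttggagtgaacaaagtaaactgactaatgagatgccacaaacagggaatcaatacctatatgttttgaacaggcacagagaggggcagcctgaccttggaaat
The match in Atp5g2 began 41 bases before the start and that in Ndufa11 59 bases before it. In Atp5l the NRF1 letters began 241 bases and the ETS letters 212 bases before the start. The runs of Atp5g1, Atp5g3, Ndufa9 and Cox8a held no match to these letters, which says only that the letters are not in these 250 bases. In windows that also take in 50 bases after the start, Ndufa9 held the YY1 letters and Cox8a the ETS letters.

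Of the 77 genes, 62 were matched by symbol to a RefSeq promoter, giving 67 windows of 300 bases (250 before and 50 after the start). The NRF1 letters were in 9 windows, 13.43%, against 1.872% of all 32851 windows. The ETS letters were in 14 windows (20.9% against 8.858%) and the YY1 letters in 7 (10.45% against 1.403%). Any of the 3 was in 24 windows, 35.82% against 11.45%. GGGCGG, the GC box, was in 37.31% of the members' windows and 35.66% of all, and TATAAA in 8.955% and 13.62%. The ETS and YY1 letters can overlap by AAG, in which case a window counts for both, and a match is a description of sequence and not evidence of binding.

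The nuclear subunit genes together took a similar share of UMIs in T cells, macrophages and cDC1, less in B cells and least in neutrophils. In T cells the share was 2.07%, 2.07%, 2.08% and 2.14%, in macrophages 1.97%, 1.87%, 1.94% and 2.10%, and in cDC1 2.001%, 2.11%, 2.15% and 2.18%. B cells had 1.48%, 1.41%, 1.47% and 1.51%. Neutrophils had 0.809%, 0.868%, 0.893% and 1.12%. The 4 neutrophil libraries lay below every library of the other classes, the B cell libraries lay between them and the rest, and the ranges of T cells, macrophages and cDC1 overlapped. The mean was highest in pDC, with 2.41%, 2.98% and 2.48% in the 3 libraries that held any, of which the single gene Cox6a2 made up 0.208%, 0.348% and 0.246%; without it the pDC shares were 2.20%, 2.64% and 2.24%. NK cells had a mean of 2.17% and cDC2 of 2.05%.

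**Figure D1:**
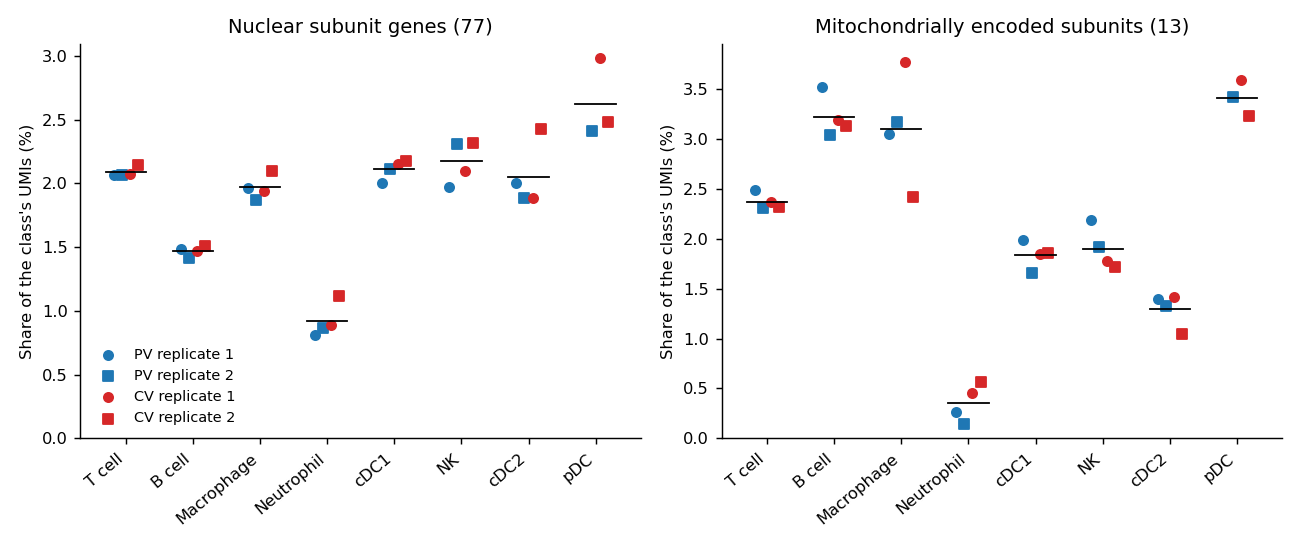
Share of each class's UMIs (y axes, percent) that fell on the 77 nuclear subunit genes (left) and on the 13 mitochondrially encoded subunits (right), by cell class (x axes); points are libraries, blue for PV and red for CV, and bars are means over libraries. Neutrophils sit lowest in both panels, at means of 0.922% and 0.355%, while B cells are low on the left (1.47%) and high on the right (3.22%).

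The denominator of a share differs between classes, because cytosolic ribosomal protein genes took 33.4% of UMIs in T cells, 34.9% in B cells and 29.4% in cDC1 but 12.7% in macrophages and 4.34% in neutrophils. With ribosomal and mitochondrial UMIs taken out of the total, the members' share was 3.25% in T cells, 3.07% in cDC1, 2.37% in B cells and 2.34% in macrophages, so that the means of macrophages and B cells were then close. In neutrophils, S100a8 and S100a9, which encode the calprotectin subunits, took 11.2%, 19.01%, 12.6% and 12.5% of UMIs. Without those 2 genes in the total the neutrophil share was 0.911%, 1.07%, 1.02% and 1.28%, still below every library of every other class. Neutrophils were also among the shallowest cells, with a median of 3131 UMIs against 3636.5 in B cells, 6183 in T cells, 6838 in macrophages and 22014 in cDC1. When each cell was thinned to 1500 UMIs, leaving out 2 neutrophils, 3 B cells, 6 T cells and 24 macrophages too shallow for it, the median number of member genes with a UMI was 10 in neutrophils, 18 in B cells, 20 in macrophages, 22 in cDC1, 23 in T cells, 24 in NK cells and 25 in pDC. Before thinning the medians were 18, 32, 47.5, 67, 50, 48 and 60 in the same order.

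The mitochondrially encoded subunits did not follow the nuclear ones from class to class. Their 13 genes took a mean of 3.22% of UMIs in B cells, 3.103% in macrophages, 2.37% in T cells and 1.84% in cDC1, and 0.263%, 0.142%, 0.453% and 0.560% in the neutrophil libraries. The ratio of nuclear to mitochondrial subunit UMIs was 0.421, 0.464, 0.461 and 0.482 in B cells, 0.829, 0.893, 0.876 and 0.925 in T cells, and 1.01, 1.27, 1.16 and 1.17 in cDC1. In neutrophils it was 3.07, 6.09, 1.97 and 1.996, above every library of the other 4 tested classes. Among the 5 tested classes, B cells thus had the lowest and neutrophils the highest ratio. In cDC2, which were not tested, it was 1.43, 1.42, 1.32 and 2.33. The last of these, from 3 cells, lay above the neutrophil values of both CV libraries. The mean ratio was 1.16 in NK cells and 0.767 in pDC. Cells with more than 10% of UMIs from mitochondrial genes had been left out, which capped the mitochondrial share. Without that limit the ratio ran from 0.339 to 0.707 in macrophages, so that they overlapped the B cells at 0.369 to 0.461, while the neutrophil values were the same because no neutrophil exceeded the limit. With a limit of 5%, 1 neutrophil of CV replicate 2 was lost and the ratio there was 4.42 in place of 1.996.

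To ask where single genes differed between classes, each tested class was compared with the equal-weight mean of the other 4 in an edgeR fit blocked by library. Of the 77 members, 72 had enough counts to be tested, among 4892 genes; Atp5s, Cox6a2, Cox6b2, Cox7a1 and Ndufs1 did not. A difference among the 5 classes passed for 71 of the 72, the exception being Ndufa7 (adjusted p = 0.0727 in edgeR), and for 90.1% of all genes tested, so that passing this test does not set the members apart. Adjusted p-values below are from edgeR's quasi-likelihood test with Benjamini-Hochberg adjustment over all genes tested, and changes are log2 differences. In edgeR their standard error (SE) is derived from the change and its test statistic. It rests on the fit of all classes, with 4 libraries a class, and is not the spread of 1 class's libraries. The 5 comparisons share the same sums, so a gene far lower in 1 class is to that extent higher in the others. Without TMM scaling the median change of all genes moved from 0.32 to 0.52 in macrophages, from 0.18 to -0.04 in cDC1 and from 0.18 to 0.08 in B cells.

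**Figure D2:**
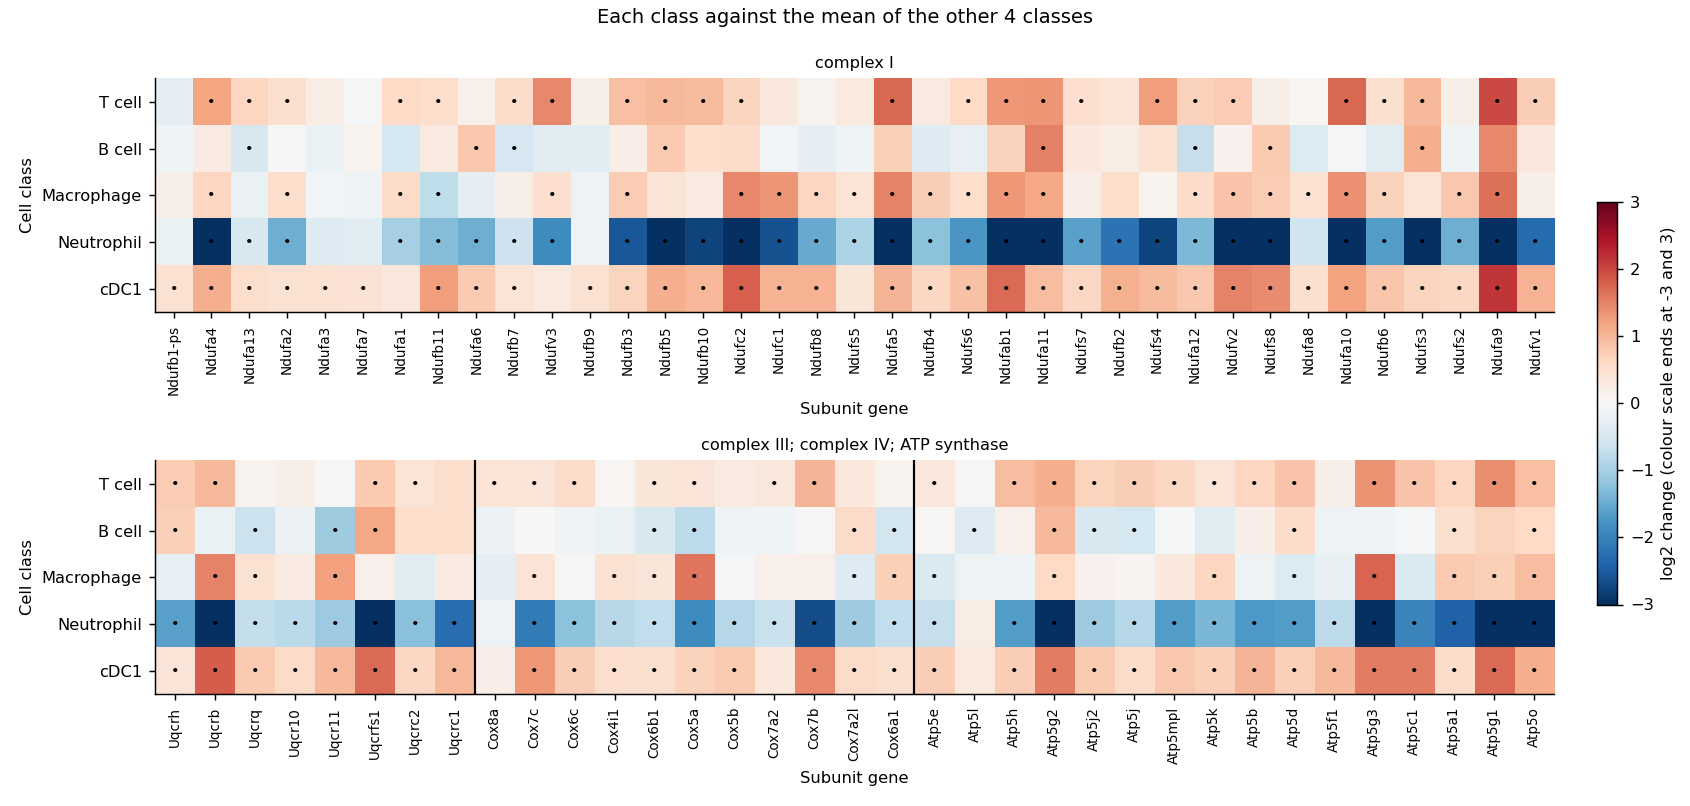
Log2 change (colour, scale ending at -3 and 3) of the 72 tested subunit genes (x axes) in each class against the mean of the other 4 classes (y axes), with complex I above and complexes III and IV and ATP synthase below; a dot marks an adjusted p under 0.05. The neutrophil row is blue for most genes, and the B cell row mixes both colours.

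In neutrophils, 65 of 72 members fell and 0 rose (1 rose, Atp5l, under 6 alternatives, among them library totals alone or DESeq2's size factors, where 22.1% of all genes rose, and DESeq2, where 22.5% did), and genes of every complex were among those that fell. Over all genes tested, 36.6% were lower and 21.0% higher in neutrophils. The members' median log2 change was -1.65 against -0.76 for all genes, so that part of the shift is shared with genes at large. By complex, the genes that fell were 32 of 37 in complex I, 8 of 8 in complex III, 10 of 11 in complex IV and 15 of 16 in ATP synthase, with medians of -1.74, -1.45, -0.85 and -1.68. For 32 members all 4 neutrophil libraries lay below all 16 library sums of the other classes, as they did for 16.2% of all genes tested; these were 18 genes of complex I, 9 of ATP synthase, 3 of complex IV and 2 of complex III. With cells thinned to 1500 UMIs, 28 of the 44 members that could be tested fell (31.9% of all genes) and 0 rose.

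The ATP synthase c subunit, the proton-carrying ring of the enzyme, is encoded by 3 genes that make the same mature protein from different precursors, and all 3 fell. Atp5g2 had 50.4, 0, 17.2 and 48.3 CPM in neutrophils, against 510, 541, 515 and 656 in T cells, 385, 478, 509 and 554 in B cells, 366, 434, 394 and 624 in macrophages and 596, 691, 592 and 617 in cDC1. The neutrophil libraries were all far below every other library, and the other classes overlapped (log2 change -4.25, SE 0.32, adjusted p = 3.76e-12 in edgeR).
Atp5g1 had 0, 0, 25.8 and 0 CPM in neutrophils, 3 UMIs in all, which is 4.56% of the other classes' mean of 239 CPM with a counting interval of 0.941% to 13.3% (95%, exact Poisson, counting error only; log2 change -4.49, SE 0.51, adjusted p = 2.19e-08 in edgeR). Atp5g3 had 0, 0, 17.2 and 24.2 CPM there, also 3 UMIs, or 4.30% (0.887% to 12.6%) of a mean of 253 CPM. The smallest neutrophil sum was 38606 UMIs in PV replicate 2, where 1 UMI is 25.9 CPM, so single neutrophil libraries cannot tell low levels from none.

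Several complex I subunits were close to the limit of detection in neutrophils. Ndufa9, an accessory subunit near the ubiquinone-binding site, had 0 UMIs in all 4 neutrophil libraries, against 44.5, 55.5, 38.3 and 40.3 CPM in T cells. With 3 counts over the whole class as the limit that 0 allows, its level was at least 3.64-fold lower than the mean of the other classes, 39.7 CPM. Ndufa11, a membrane-arm subunit, had 1 UMI in the neutrophils (8.62 CPM in CV replicate 1 and 0 in the others), against 124, 132, 118 and 98.9 CPM in T cells. That is 3.35% of the other classes' mean, with a counting interval of 0.0847% to 18.6% (log2 change -4.92, SE 0.67, adjusted p = 4.55e-07 in edgeR). Ndufab1, the mitochondrial acyl carrier protein, and Ndufa5, a subunit of the peripheral arm, each had 1 UMI, in PV replicate 1, against mean levels of 120 and 117 CPM in the other classes; their intervals reached 16.8% and 17.3% of those means. Ndufc2 had 2 UMIs, 4.58% (0.555% to 16.6%) of 158 CPM. In complex III the largest fall was that of Uqcrb, a small matrix-side subunit, with 25.2, 0, 17.2 and 24.2 CPM in neutrophils and 360, 445, 409 and 395 in macrophages (log2 change -4.07, SE 0.37, adjusted p = 2.5e-10 in edgeR).

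A smaller set did not pass in neutrophils. The test recovered 46.8% of simulated 2-fold changes, over genes of widely differing levels and with few genes changed. That figure does not give the power for the genes of this set. Of these 7 members, 5 belong to complex I (Ndufb1-ps, Ndufb9, Ndufa7, Ndufa3 and Ndufa8), 1 to complex IV (Cox8a) and 1 to ATP synthase (Atp5l). Cox8a, the ubiquitous isoform of a small complex IV subunit, had 731, 803, 844 and 1280 CPM in neutrophils, against 771, 765, 677 and 754 in B cells and 940, 632, 777 and 903 in macrophages; these ranges overlapped (log2 change -0.14, SE 0.15, adjusted p = 0.428 in edgeR). Atp5l, the g subunit of the membrane part of ATP synthase, had 718, 907, 775 and 700 CPM in neutrophils and 586, 643, 658 and 668 in T cells, and its neutrophil libraries lay above every library of the other 4 classes (log2 change 0.23, SE 0.14, adjusted p = 0.168 in edgeR). The call depended on the setting: Atp5l passed as higher in neutrophils under 6 of 20 alternatives, namely without TMM (0.35, SE 0.13, adjusted p = 0.0234 in edgeR), with DESeq2's size factors (0.33, SE 0.13, adjusted p = 0.0364 in edgeR) in DESeq2 (0.34, SE 0.12, adjusted p = 0.011), without CV replicate 2 (0.53, SE 0.17, adjusted p = 0.0155 in edgeR), with shared barcodes kept (0.35, adjusted p = 0.0319 in edgeR) and with NK cells added as a class (0.32, adjusted p = 0.0441 in edgeR). It was the only member with its highest mean level in neutrophils among the tested classes. Ndufb1-ps had 328, 414, 508 and 918 CPM, a wide range with CV replicate 2 highest. As a share of the mean of the other classes, neutrophil levels were 132% for Atp5l, 105% for Ndufb9, 104% for Cox8a, 101% for Ndufb1-ps, 85.2% for Ndufa7, 84.1% for Ndufa3 and 78.0% for Ndufa8. Of the markers of other classes, the neutrophil sums held 0 to 60.3 CPM for the 8 T cell markers together (6332 to 6901 in T cells) and 169 to 259 CPM for the 8 macrophage markers (12816 to 19970 in macrophages). The 9 markers of NK cells and ILC1 came to 5857 to 6690 CPM, of which Tyrobp, a signalling adaptor also made by myeloid cells, was nearly all; the other 8 had 0, 0, 25.9 and 0 CPM there, with Ncr1, Klra8, Klra4, Eomes and Prf1 at 0. The 7 monocyte markers came to 2166, 363, 1895 and 1691 CPM, of which Nr4a1, an immediate early gene, had 1675, 363, 1551 and 1353. Chil3 had 378, 0, 51.7 and 0 CPM, and Treml4 25.2, 0, 181 and 72.5. Ly6c2 had 25.2, 0, 68.9 and 121 CPM and Plac8 63.0, 0, 43.1 and 145, while Ccr2 and Ace were at 0. Their part in the neutrophil levels of the members was not tested. Neutrophil libraries thus held subunits of 1 complex at very different fractions of their level elsewhere.

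**Figure D3:**
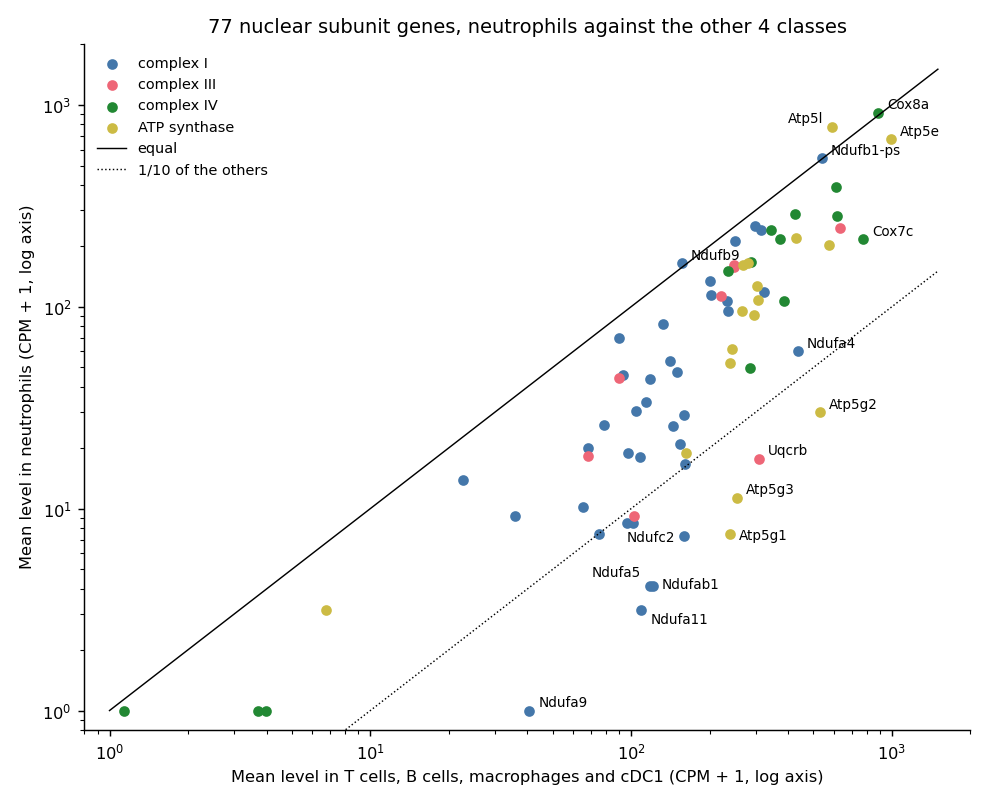
Mean level of each of the 77 genes in neutrophils (y axis, CPM + 1, log scale) against the mean over T cells, B cells, macrophages and cDC1 (x axis, CPM + 1, log scale), coloured by complex; the solid line marks equal levels and the dotted line 1/10 of the others. Atp5l, Cox8a, Ndufb9 and Ndufb1-ps lie on or above the solid line, and Ndufa9, Ndufa11, Ndufab1, Ndufa5, the 3 Atp5g genes and Uqcrb lie below the dotted line.

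Other mitochondrial lists were low in neutrophils as well. All 13 mitochondrially encoded subunits fell (median log2 change -3.07), as did 36 of 49 tested mitochondrial ribosome genes (1 rose), 7 of 10 tested genes of the tricarboxylic acid cycle and 2 of 4 complex II genes, Sdhc (-3.51, SE 0.995) and Sdhb (-1.10, SE 0.37). Cycs, which encodes cytochrome c, fell by 1.95 (SE 0.36) and Cyc1, the cytochrome c1 subunit of complex III, by 3.20 (SE 0.78). Among 13 tested glycolysis genes 5 rose and 2 fell: Hk3, a hexokinase, by 4.34 (SE 0.54), Pkm by 1.09 (SE 0.17), Gpi1 by 1.02 (SE 0.17), Eno1 by 0.65 (SE 0.22) and Aldoa by 0.61 (SE 0.18) were the 5 that rose. Of 7 tested complex IV assembly genes 5 fell and 2 rose. Cox17, a copper chaperone for complex IV, had 516, 725, 1077 and 628 CPM in neutrophils and 215, 236, 237 and 207 in T cells, so that every neutrophil library was above every T cell library (log2 change 1.52, SE 0.20, adjusted p = 1.86e-07 in edgeR). Pet100, another complex IV assembly gene, rose by 0.85 (SE 0.22). All 81 tested cytosolic ribosomal protein genes fell, so low transcript levels in neutrophils were not confined to mitochondrial genes.

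In T cells, 49 of 72 members were higher and 0 lower (1 lower, Ndufb1-ps, with DESeq2's size factors and in DESeq2, where 18.7% and 26.1% of all genes were lower, and with 1 more gate marker or shared barcodes kept), against 37.3% of all genes higher and 17.4% lower; the members' median change was 0.56 and that of all genes 0.24. The genes higher were 24 of 37 in complex I, 4 of 8 in complex III, 7 of 11 in complex IV and 14 of 16 in ATP synthase. The largest rises were those of Ndufa9 (1.98, SE 0.49, adjusted p = 0.00148 in edgeR), Ndufa10 and Ndufa5, all 3 with 0 or 1 UMI in neutrophils. With neutrophils left out the T cell change of Ndufa9 was 0.17 and did not pass (adjusted p = 0.562 in edgeR), while Ndufa10 (0.68) and Ndufa5 (0.50) still passed. Ndufa10, an accessory subunit of the membrane arm, had 99.3, 118, 94.7 and 103 CPM in T cells, 83.0, 85.3, 106 and 89.4 in macrophages, and 23.4, 43.4, 45.6 and 27.9 in B cells. T cells and macrophages overlapped, and B cells lay below both.

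In cDC1, 66 of 72 members were higher and 0 lower, against 34.1% of all genes higher and 16.6% lower, with a median change of 0.78 against 0.18. The genes higher were 34 of 37 in complex I, 8 of 8 in complex III, 9 of 11 in complex IV and 15 of 16 in ATP synthase. Uqcrb had 363, 398, 416 and 429 CPM in cDC1 against 152, 97.7, 114 and 191 in B cells (log2 change 1.81, SE 0.17, adjusted p = 9.09e-10 in edgeR); its macrophage values, given above, overlapped those of cDC1. Ndufc2 had 193, 221, 165 and 222 CPM in cDC1 and 120, 124, 109 and 142 in T cells (1.79, SE 0.25), without overlap. Among the tested classes its mean level was highest in macrophages, not in cDC1. Uqcrfs1, the Rieske iron-sulfur subunit of complex III, had 143, 163, 104 and 125 CPM in cDC1 and 104, 59.3, 58.4 and 82.9 in macrophages, without overlap but by a narrow margin (1.70, SE 0.24). These changes rested in part on the low neutrophil levels. With neutrophils left out they were 0.87 for Uqcrb, 0.75 for Ndufc2 and 0.83 for Uqcrfs1, and each still passed. Cells with proliferation markers were 18 of the 79 cDC1, between 3 and 6 in each library; with such cells left out of every class 49 members were higher in cDC1 and 0 lower (31.3% of all genes higher). Without TMM scaling 46 were higher and 0 lower (26.9% and 22.6% of all genes). With cells thinned to 1500 UMIs, 44 members could be tested, of which 6 were higher and 0 lower (24.2% and 17.1% of all genes).

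In macrophages, 36 of 72 members were higher and 4 lower, against 37.0% and 13.2% of all genes, and the members' median change was 0.40 against 0.32. The make-up of the class differed between libraries: 3 of the 17 macrophages of PV replicate 1 met the gate for Kupffer cells, the resident liver macrophages, against 110 of 125, 52 of 64 and 38 of 54 in the others, and the 8 Kupffer markers came to 2260 CPM there against 14571 to 15890. At full depth members were called higher more often, and lower less often, than all genes. With cells thinned to 1500 UMIs 6 of 44 members were higher and 6 lower (35.7% and 20.1% of all genes), in both directions less often than all genes. Within the set the direction differed between genes of 1 complex. Cox5a, a nuclear subunit of complex IV, had 394, 843, 809 and 754 CPM in macrophages, against 368, 312, 326 and 328 in T cells and 128, 179, 182 and 158 in B cells. All 4 macrophage libraries were above all other libraries, with PV replicate 1, which holds 17 macrophages, well below the other 3 (log2 change 1.60, SE 0.16, adjusted p = 1.08e-09 in edgeR). The change was 1.80 with macrophages limited to the Kupffer gate and 1.82 without PV replicate 1. Atp5g3 had 297, 359, 424 and 379 CPM in macrophages and 70.1, 92.3, 122 and 154 in B cells (1.75, SE 0.19). Uqcr11, a small subunit of complex III, had 332, 366, 392 and 384 CPM in macrophages, above every library of the other tested classes (1.23, SE 0.16). Ndufb11, a membrane-arm subunit of complex I, went the other way, with 159, 122, 123 and 133 CPM in macrophages against 276, 353, 341 and 361 in cDC1 and 263, 267, 257 and 222 in T cells (log2 change -0.76, SE 0.18, adjusted p = 0.000734 in edgeR). The other 3 that fell were Atp5e (-0.42, SE 0.14), Atp5d (-0.41, SE 0.17) and Cox7a2l (-0.39, SE 0.16). Ndufa9 passed as higher (1.66, SE 0.59, adjusted p = 0.0216 in edgeR), a call that rested on the neutrophils: with these left out its change was -0.14.

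In B cells, 12 members were higher and 11 lower, against 26.6% and 12.9% of all genes, and the members' median change was -0.03 against 0.18. Without TMM scaling 8 were higher and 12 lower (23.5% and 15.0% of all genes). Without PV replicate 2 the calls came to 11 in all (32.8% of all genes), and without CV replicate 1 to 12 (33.5%). Ndufa11 had 81.7, 163, 83.6 and 130 CPM in B cells and 80.6, 79.2, 111 and 62.6 in cDC1, ranges that overlapped (log2 change 1.51, SE 0.30, adjusted p = 0.000207 in edgeR). Uqcrfs1 (1.16, SE 0.30) and Ndufs3, an iron-sulfur protein of complex I (1.09, SE 0.32), also rose. These 3 genes had 1 or 2 UMIs in neutrophils, and with neutrophils left out none of the 3 passed, at changes of 0.28 for Ndufa11, 0.20 for Uqcrfs1 and 0.29 for Ndufs3 (adjusted p = 0.335, 0.537 and 0.383 in edgeR). Without PV replicate 2 the change of Ndufs3 was 0.71 and did not pass (adjusted p = 0.18 in edgeR). Uqcr11 had 23.4, 125, 98.8 and 88.4 CPM in B cells and 166, 178, 162 and 178 in T cells, with B cells lower in every library and PV replicate 1, at 19 cells, lowest (-1.07, SE 0.23, adjusted p = 0.000429 in edgeR). Cox5a fell by 0.78 (SE 0.21) and Ndufa12 by 0.70 (SE 0.27).
The other lists did not move as the members did in B cells: all 13 mitochondrially encoded subunits were higher, and 10 of 13 tested glycolysis genes were lower with 0 higher. Of all genes tested, 26.6% were higher and 12.9% lower. The mean of the others here includes neutrophils, in which all 13 mitochondrially encoded subunits fell.

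Because the neutrophil levels enter the mean of the others in every comparison, the 4 remaining classes were also compared with one another, a comparison chosen after the data were seen, with 73 members tested among 6500 genes. In it, T cells had 16 members higher and 3 lower (24.8% and 18.9% of all genes), B cells 1 higher and 40 lower (17.5% and 15.2%), macrophages 11 higher and 20 lower (29.8% and 21.6%) and cDC1 41 higher and 0 lower (22.6% and 16.8%). The members' medians were 0.10, -0.43, -0.06 and 0.40, against 0.06, -0.07, 0.04 and -0.01 for all genes. Macrophages and B cells then had more falls than rises, and T cells more rises than falls, though fewer rises than the share of all genes would give.

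Among these 4 classes, genes of the same complex went in different directions. In complex IV, Cox5a was higher in macrophages by 1.22 (SE 0.14) and lower in B cells by 1.37 (SE 0.18). In complex III, Uqcr11 was higher in macrophages by 1.04 (SE 0.15) and lower in B cells by 1.45 (SE 0.21). In ATP synthase, Atp5c1, the gamma subunit that forms the central stalk, had 104, 144, 123 and 225 CPM in macrophages and 332, 415, 334 and 395 in cDC1, without overlap; it fell by 0.96 (SE 0.16) in macrophages and rose by 1.16 (SE 0.14) in cDC1. Atp5g3 rose in macrophages by 0.68 (SE 0.14) and fell in B cells by 1.36 (SE 0.18), so that 2 subunits of 1 enzyme moved in opposite directions in macrophages. In complex I, Ndufb11 fell in macrophages by 1.13 (SE 0.16) and rose in cDC1 by 1.02 (SE 0.14). Ndufv3, a small flavoprotein-module subunit, had 265, 252, 234 and 225 CPM in T cells against 159, 153, 171 and 137 in macrophages, and was higher in T cells by 1.01 (SE 0.13) and lower in B cells by 0.91 (SE 0.19). Ndufs8, an iron-sulfur subunit, fell by 0.66 (SE 0.17) in T cells. The 1 member higher in B cells was Ndufa6 (0.45, SE 0.15). Each of these passed at an adjusted p under 0.05 in edgeR's quasi-likelihood test, and the genes in this paragraph were chosen after their values were seen.

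Reads from members with near-identical copies elsewhere in the genome may have been lost or split in counting, for which the sources used here give no setting, so levels of such genes are uncertain while the same counting applied to every class.

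Most subunits with alternative isoforms were represented by the ubiquitous one, with 1 exception. Cox6a2, known as the heart and skeletal muscle isoform of a complex IV subunit (chr7:128205435-128206387, minus strand, GRCm38), was at 2081, 3478 and 2465 CPM in the pDC of PV replicate 2 and CV replicates 1 and 2; PV replicate 1 held no pDC. A Cox6a2 UMI was found in 20 of 21 pDC (95.2%, Wilson 95% interval 77.3% to 99.2%, median depth 9130 UMIs), with a median of 20 UMIs in the positive cells. It was found in 0 of 703 T cells (by the limit of 3 counts, a share of cells with a UMI of up to 0.427%, median depth 6183), 0 of 154 B cells, 0 of 86 neutrophils, 0 of 79 cDC1, 0 of 28 cDC2, 1 of 260 macrophages and 2 of 75 NK cells. Of the cells that met several gates, 10 of 95 had it, with 152 UMIs in all. Cox6a2 is itself a known pDC marker and was kept out of the gate, so its level played no part in choosing these 21 cells; with so few cells, and none in 1 library, no test was made. Within pDC it stood far above the ubiquitous isoform Cox6a1, at 220, 186 and 114 CPM, whereas Cox6a1 was the isoform of the tested classes, from a mean of 141 CPM in B cells to 332 in macrophages. RefSeq promoter sequence was not matched for Cox6a2.

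**Figure D4:**
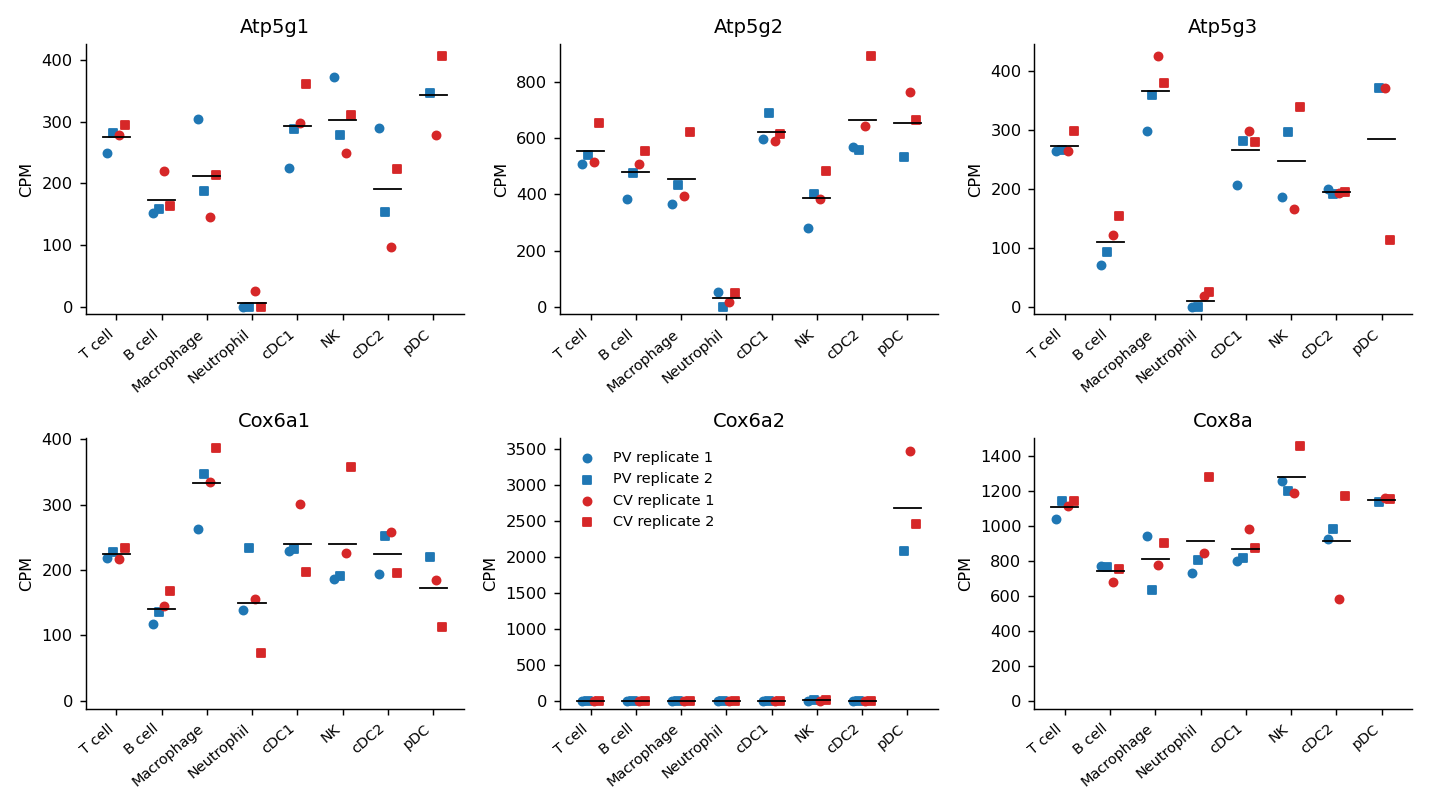
Levels (y axes, CPM) of the 3 ATP synthase c subunit genes, the isoforms Cox6a1 and Cox6a2, and Cox8a by cell class (x axes); points are libraries, blue for PV and red for CV, circles for replicate 1 and squares for replicate 2, and bars are means. Cox6a2 is above 2000 CPM in pDC and near 0 elsewhere, the 3 Atp5g genes are near 0 in neutrophils, and Cox8a in neutrophils lies among the other classes.

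The other tissue-restricted isoforms were rare. Cox7a1, the isoform of heart and muscle, had a UMI in 12 of 260 macrophages (4.62%), with 6.91, 5.20, 8.65 and 8.72 CPM, and in 1 of 703 T cells (0.142%) at similar median depth (6838 and 6183 UMIs). Its ubiquitous counterpart Cox7a2 was at 394, 335, 353 and 412 CPM in macrophages. Cox6b2, known as the testis isoform, had a UMI in 10 of 260 macrophages, 5 of 79 cDC1 and 4 of 28 cDC2 (14.3%), against 2 of 703 T cells and 0 of 154 B cells; cDC1 and cDC2 were deeper, with medians of 22014 and 13527 UMIs. Cox6b1 was at 560, 476, 489 and 512 CPM in macrophages. Cox4i2, the lung isoform, had 6 UMIs in 5 of 260 macrophages, against Cox4i1 levels of 698, 715, 798 and 848 CPM. Each of these shares is low, and no test was made of them.

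Across all kept cells the highest levels were those of Atp5e, the epsilon subunit of ATP synthase, at 1003 CPM with a UMI in 91.8% of cells, and Cox8a, at 959 CPM and 92.5%. Next came Cox7c at 767 CPM, Atp5l at 636, Uqcrh, the hinge protein of complex III, at 630, Ndufb1-ps at 518 and Ndufa4 at 476. Ndufa4 carries a complex I name and is now regarded as a subunit of complex IV; it had 539, 576, 522 and 554 CPM in T cells and 50.4, 104, 34.5 and 48.3 in neutrophils, without overlap (log2 change in neutrophils -3.15, SE 0.25, adjusted p = 2.01e-11 in edgeR). Among the 5 tested classes the mean level was highest in macrophages for 25 members, in cDC1 for 25, in T cells for 22, in B cells for 4 and in neutrophils for 1, and it was lowest in neutrophils for 62. Ndufv2 and Ndufa1, core and accessory subunits of complex I, followed the majority, with mean levels of 7.46 and 113 CPM in neutrophils against 96.4 and 240 in T cells; for Ndufa1 the neutrophil libraries spread from 25.9 to 266 CPM, and CV replicate 2 overlapped the T cells.

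Whether the zone of the liver mattered was tested within each class, PV over CV with 2 libraries a side. In T cells, the class with at least 20 cells in every library, 0 of 73 members passed, nor did any other of 7815 genes (0.0%), and 1 member and 224 of all genes had an unadjusted p under 0.05 in edgeR. The smallest p was that of Ndufb4, an accessory subunit of complex I, with 94.1, 108, 123 and 142 CPM, both CV libraries above both PV libraries (log2 change -0.44, SE 0.18), with an adjusted p of 0.9998 in edgeR's quasi-likelihood test. Ndufb3 (-0.31, SE 0.16) and Ndufa5 (-0.27, SE 0.16) followed and did not pass. DESeq2 called 0 members as well.

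The other classes, tested after the cell numbers were seen, gave 0 members past the threshold too. In macrophages this was 0 of 73, with 0.0175% of 5718 genes called (Gdf15 alone); in B cells 0 of 66, with 0.0% of 2086; in neutrophils 0 of 21, with 0.0% of 846; and in cDC1 0 of 72, with 0.0265% of 3774 (Cd207 alone). At an unadjusted p under 0.05 in edgeR there were 0 members in macrophages, 1 in B cells, 0 in neutrophils and 0 in cDC1. How many of all genes had such a p in these classes is not given here, so these counts are not set against genes at large. At the adjusted threshold DESeq2 called 0 members in each class (0.035% of all genes in macrophages and 0.0265% in cDC1). In macrophages Ndufb6 had 131, 109, 77.9 and 78.5 CPM, both PV libraries above both CV libraries (0.63, SE 0.34). Ndufs4, an accessory subunit known from Leigh syndrome, had 138, 70.7, 60.6 and 56.7 CPM (0.74, SE 0.44), with PV replicate 1 alone far above the rest. That is the library in which 14 of 17 macrophages lay outside the Kupffer gate, and without it the change was 0.23. Zone and this difference in make-up cannot be told apart in that library. Without PV replicate 2, which holds 125 of the 260 macrophages and leaves 17 in the PV zone, Ndufs4 (1.37, SE 0.44, adjusted p = 0.0369 in edgeR) and Cox7b (1.29, SE 0.34, adjusted p = 0.00483) passed, as did 5.77% of all genes tested. In that fit PV is 1 library, assumed to vary like the CV pair, which alone gives the spread. In B cells the smallest p was that of Ndufc2, with 93.4, 54.3, 144 and 140 CPM (-1.07, SE 0.39, adjusted p = 0.9996 in edgeR). In neutrophils Ndufa3 had 214, 130, 293 and 362 CPM (-0.80, SE 0.45), and in cDC1 Ndufa9 had 27.3, 40.8, 71.8 and 43.4 CPM (-0.81, SE 0.42); neither passed.

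The zone changes leaned slightly towards CV in every class without passing for a gene. The members' medians were -0.08 in T cells, -0.07 in macrophages, -0.10 in B cells, -0.11 in neutrophils and -0.06 in cDC1, against -0.01, -0.00, -0.01, -0.01 and 0.01 for all genes tested. Both CV libraries lay above both PV libraries for 15 of 73 members in T cells (11.8% of all genes), 19 of 73 in macrophages (15.5%), 15 of 66 in B cells (14.1%), 7 of 21 in neutrophils (16.3%) and 23 of 72 in cDC1 (18.6%). Both PV libraries lay above both CV libraries for 8 (18.2%), 5 (13.9%), 5 (16.6%), 0 (12.1%) and 7 (16.1%) members in the same order. The classes of 1 library share its preparation and depth, so these 5 values are not independent, and members were not tested as a set.

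**Figure D5:**
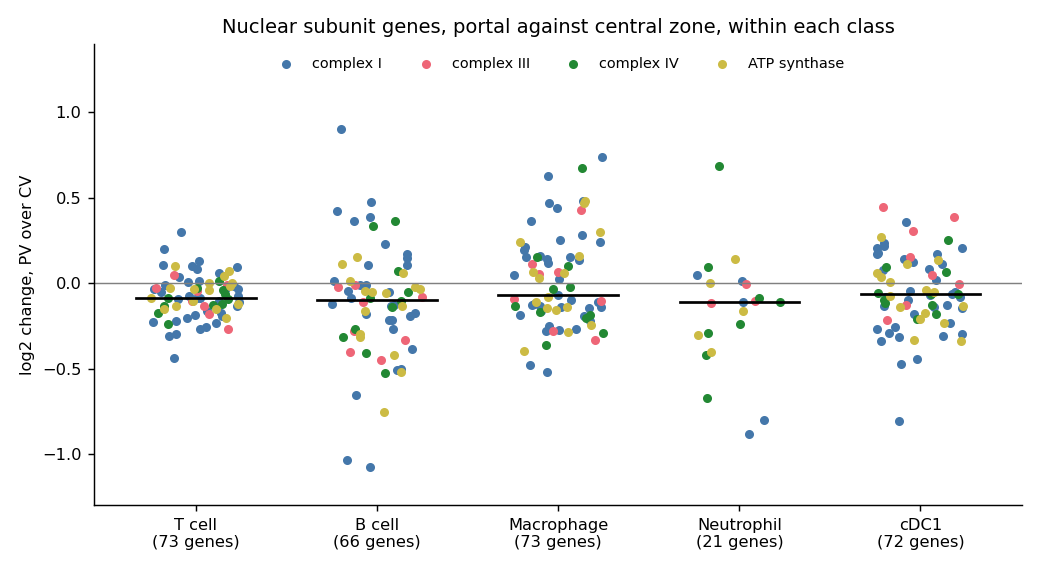
Log2 change, PV over CV, of each tested subunit gene (y axis) within each class (x axis, with the number of genes tested), coloured by complex; bars are medians. The medians lie between -0.11 and -0.06, T cell genes lie closest to 0, and 0 genes passed the adjusted threshold in any class.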

How the data were processed

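CD45+ liver cells were measured in 4 single-cell libraries, made with 10x 3′ v3.1 chemistry per the labels' protocols. Matrices deposited by the authors hold unnormalised UMI counts of 32285 genes for every barcode. Cell Ranger 4.0.0 and mm10 are named in the submitters' processing notes, while the annotation is not given in the sources used here. Symbols were matched for 32158 identifiers, with positions from GENCODE vM21 on GRCm38.

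Barcodes with at least 200 genes and at most 10% mitochondrial UMIs were kept, each only in the library with at least 70% of its UMIs. Doublets called by scrublet (12 of 1593 cells) were kept and left out as an alternative. A class needed UMIs of at least 4 of its markers, a number set after the barcodes and before members' levels by class were seen. Classes rest on these rebuilt gates, not on an annotation by the authors. Libraries of a zone were no duplicates (chi-square per degree of freedom 17.3 and 10.4).

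Counts were summed per library and class and tested with edgeR 4.0.16 in R 4.3.3 (TMM, filterByExpr, quasi-likelihood F-test, Benjamini-Hochberg at 0.05 over all genes), with DESeq2 1.42.0 as the other tool. Scaling, filters, thinning, gates and left-out libraries were varied. On simulated counts, the neutrophil contrast recovered 46.8%, 94.3% and 89.7% of 2-, 4- and 8-fold changes over 4139 genes (7 false of 163 calls), and the T cell zone test 56.9%, 93.2% and 97.1% over 7557 genes (4 false of 171). Few genes were changed in the simulation, whereas in the data 1789 genes were called lower and 1028 higher in neutrophils, so recovery there can differ. Intervals are 95% Wilson or exact Poisson and cover counting error only.

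The members, the gene lists and the markers were chosen with earlier results of these data known. A rule set which genes to name. Per comparison it took the 3 members past the test with the largest rise and fall or, in zones, the 3 with the smallest p. It also took the 2 highest members per complex and the isoform families. Some of these genes are not given under their comparison, among them Ndufa9 in cDC1 and Ndufb1-ps in the neutrophil zone test. Further genes were picked with their values in view.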

Additional observations from a re-analysis of the deposited data

How the results depend on the processing

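Of 265 values of the comparisons under another setting, 246 kept their direction and size, and 624 of 658 values for genes named by the rule kept their direction and side of the threshold (32 fell short of it, 1 newly passed, 1 turned). Outside the rule, Atp5l newly passed in neutrophils under 6 of 20 alternatives and Ndufb1-ps in T cells under 5 of 21, among them neutrophils left out (-0.37, adjusted p = 0.00731 in edgeR). With cells thinned to 1500 UMIs only 44 members could be tested, and 39 differed between classes, with 9 calls in B cells, 12 in macrophages, 28 in neutrophils and 6 in cDC1. With neutrophils left out there were 19 in T cells, 41 in B cells and 41 in cDC1, and the macrophage change of Ndufa9 turned to -0.14 (adjusted p = 0.673 in edgeR). B cells had 14 calls with no filter on low counts and 11 to 18 with 1 library left out. There were 11 without PV replicate 2 and 12 without CV replicate 1, where 32.8% and 33.5% of all genes were called. The share of all genes is not given for the unfiltered and thinned B cell counts, nor for the 39 thinned members that differed between classes. Those counts are therefore not set against genes at large. The thinned calls in T cells are not given. Macrophages had 0 to 2 zone calls with 1 library left out, the 2 without PV replicate 2. The members' share of UMIs, with ribosomal and mitochondrial UMIs out of the total, was 3.25% in T cells, 2.37% in B cells, 2.34% in macrophages and 3.07% in cDC1; thinned, it was 1.80% in macrophages and 2.003% in cDC1, and 1.93% in cDC1 without cycling cells. The cause was not tested beyond fewer genes or classes entering the fit. In the zone tests, the fit with the replicate number as a block called 0 members in each class; the labels give no pairing, and same-numbered T cell sums deviated together with a correlation of 0.133 over 7815 genes. Low neutrophil depth limits single genes: 38606 to 116065 UMIs a library.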

Other observations

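In neutrophils, mitochondrially encoded subunits were lower in the PV libraries without passing the adjusted threshold in the fit of all 4 libraries. Of the 13 genes, 7 could be tested there, and all 7 had an unadjusted p under 0.05 in edgeR with lower levels in the PV libraries, while 0 passed the Benjamini-Hochberg adjustment. How many of all 846 genes tested had an unadjusted p under 0.05 is not given here, so the 7 are not set against genes at large. One of these, mt-Atp6, a subunit of ATP synthase, had 390 and 259 CPM in PV replicates 1 and 2 and 956 and 797 CPM in CV replicates 1 and 2 (log2 change -1.37, SE 0.35, adjusted p = 0.999 in edgeR). For mt-Cytb, the mitochondrial subunit of complex III, the values were 214, 77.7, 465 and 314 CPM (-1.29, SE 0.50). The neutrophil sums hold 22 and 12 cells in the PV libraries and 37 and 15 in the CV libraries. No neutrophil exceeded the limit of 10% mitochondrial UMIs. At a limit of 5%, which removed 1 cell of CV replicate 2, only 5 of these genes could be tested, all 5 were lower in PV, 1 had an unadjusted p under 0.05 and the median change was -0.80 in place of -1.29. With cells thinned to 1500 UMIs, 4 genes could be tested, 0 had an unadjusted p under 0.05 and the median was -0.53. DESeq2 gave 3 of 7 at an unadjusted p under 0.05. With 1 library left out the median ran from -1.0 (without PV replicate 2) to -1.99 (without PV replicate 1). In these fits PV was 1 library, of 22 and 12 cells, and the spread was taken from the CV pair alone. Their calls at the adjusted threshold are therefore not counted here, and absence of calls is not claimed for them. Of the 21 nuclear subunit genes tested in neutrophils, 0 had an unadjusted p under 0.05.

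B cells had low glycolysis transcripts beside high mitochondrially encoded ones, against the mean of the other 4 classes. Of 13 tested glycolysis genes, 10 were lower and 0 higher in edgeR, with a median log2 change of -1.28, while 13 of 13 mitochondrially encoded subunits were higher, with a median of 1.34. Over all genes tested, 12.9% were lower and 26.6% higher in B cells. The mean of the others includes neutrophils, in which all 13 mitochondrially encoded subunits fell. Most of the 13 also passed as higher in macrophages and in T cells. No values for these lists with neutrophils left out are given here. Pkm, which encodes pyruvate kinase, had 93.4, 70.6, 98.8 and 83.7 CPM in B cells and 390, 389, 370 and 483 CPM in neutrophils, without overlap.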
